A study of Mus musculus with 4 samples.

Results

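The small RNA processing and Argonaute genes described here were the 10 rows of a mouse RNA-seq count table named Ago1, Ago2, Ago3, Ago4, Dicer1, Drosha, Dgcr8, Xpo5, Tarbp2 and Tnrc6a, out of 49997 rows. They were taken by symbol, without a cut on any measured value, but with earlier results of these data known. The 4 libraries came from the mouse embryonic stem cell (ESC) line E14, grown on gelatin in serum replacement medium with leukemia inhibitory factor. According to the study, its Ythdf knockdown lines were made in ESCs with a tdTomato transgene under the promoter of the retrotransposon MERVL. All cells carried a short hairpin RNA (shRNA) brought in by lentivirus from a vector with a U6 promoter, and stable lines were selected with puromycin. In 2 libraries the shRNA was a scrambled control (shScramble) and in 2 it was directed at Ythdf2 (shYthdf2), the gene of a cytoplasmic reader of N6-methyladenosine (m6A) in mRNA. The study describes the 2 libraries of a group as independent biological replicates. Its methods list 2 shRNAs against Ythdf2, and the sources used here do not give which of them these libraries carried, or whether the libraries of a group came from separate infections. The p-values therefore measure the spread between these libraries only, which may be technical. Both groups therefore expressed an shRNA, and cells without one were not analysed here.

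The 10 genes act in sequence. In the nucleus Drosha and its partner Dgcr8, together the Microprocessor, cut hairpins out of primary microRNA transcripts, and Xpo5 carries the hairpins to the cytoplasm. There Dicer1 with its partner Tarbp2 removes the loop, 1 strand is loaded into an Argonaute protein, and Tnrc6a, bound to the Argonaute, recruits the enzymes that shorten the poly(A) tail of the target. Hairpins made from a U6 promoter generally enter this route at Xpo5 without Drosha, and Ago2 is the Argonaute that slices fully paired targets. Mouse ESCs that lack Dgcr8 or Dicer1 survive but grow slowly and differentiate poorly. The question put to these libraries was whether the transcripts of the machinery that handles the shRNAs differed between the shRNA lines.

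The libraries held between 31113006 and 36422510 counted reads. Both reads of a pair were counted, so that precision is lower than the read number alone would give. Ythdf2, the targeted gene, had 93.4 and 87.6 CPM (reads scaled to a common library total, here adjusted by the TMM factors of edgeR) with shScramble and 31.8 and 30.2 CPM with shYthdf2. This was a difference of -1.55 ± 0.11 on the log2 scale (SE, n = 2 libraries a group) at an edgeR adjusted p of 6.93e-04. The ESC markers Pou5f1 and Nanog were each above 695 CPM in every library. Of the 8 ESC markers 1, Tdgf1, was called lower (658 and 748 CPM with shScramble, 510 and 503 CPM with shYthdf2). At an edgeR unadjusted p under 0.05, 4 were lower, beside 9.80% of all tested genes, and 0 were higher, beside 11.0%. The markers did not all fall, with log2 fold changes of 0.13 for Pou5f1, 0.04 for Esrrb and -0.01 for Zfp42. The list summed to 6012 and 5924 CPM in shScramble and 5572 and 5166 CPM in shYthdf2. Of the feeder fibroblast markers, Col3a1, Dcn and Postn had at most 7 reads in any library, and the other 3 summed to between 9.33 and 17.6 CPM. Of 18341 genes tested, 2.43% were called higher and 1.49% lower in shYthdf2 at an edgeR adjusted p under 0.05.

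All 10 genes passed the filter on low counts, and 0 of 10 were called in either direction. Their edgeR adjusted p-values lay between 0.106 and 0.943. At the adjusted p of DESeq2 1 was called lower, Ago3, beside 615 of 30565 genes, and 0 were called higher, beside 808. The 30565 are all genes with a read, including any to which DESeq2 gave no adjusted p. At the adjusted p of limma-voom 0 were called, beside 368 higher and 253 lower of 18341 genes. At an unadjusted p under 0.05, 2 of 10 were lower, beside 9.80% of all tested genes, and 0 of 10 were higher, beside 11.0%. The median log2 fold change of the 10 genes was -0.05 and that of all tested genes was 0.00. With the study's criteria, a DESeq2 unadjusted p of at most 0.05 and a fold change of at least 2 in either direction, 0 of 10 passed, beside 2.88% of the 30565 genes with a read. Both shYthdf2 libraries lay above both shScramble libraries for 1 of the 10 genes, Drosha (26.2% of all tested genes), and below them for 3, Ago1, Ago3 and Ago4 (25.5%). Against this background, counts of 1 and 3 among 10 are not a result about these genes.

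**Figure D1:**
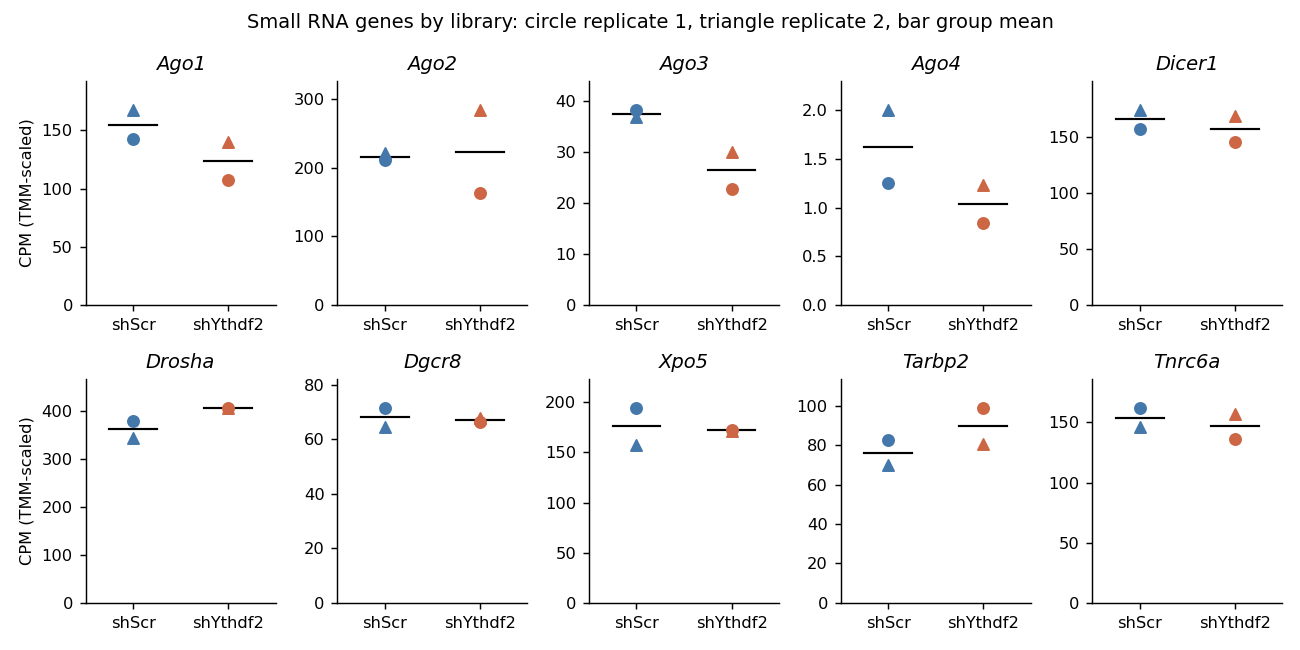
TMM-scaled CPM (y axis, from 0) of each of the 10 genes in the 2 shScramble libraries (shScr, blue) and the 2 shYthdf2 libraries (orange), with circles for replicate 1, triangles for replicate 2 and bars for group means. Ago1, Ago3 and Ago4 sit lower in both shYthdf2 libraries, Drosha sits higher, and the 2 shYthdf2 libraries lie on either side of the controls for Ago2.

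The Argonautes bind the mature small RNA. Ago3, Ago1 and Ago4 lie in that order on the minus strand of chromosome 4, at chr4:126326994-126431670, chr4:126435012-126468707 and chr4:126489487-126533586 in the mm10 build, with 3341 bases between Ago3 and Ago1, 20779 bases between Ago1 and Ago4 and no other row of the table in between. Ago2 lies apart, at chr15:73101625-73184947 on the minus strand. The coding sequences of the 4 genes were 73.2% to 76.8% identical in pairs. Ago1 and Ago3, however, share an unbroken stretch of 170 identical bases in their exon 12, while the rest of their aligned coding bases were 74.9% identical. A 75-base window of this stretch fits both genes, and such windows made up 1.34% of the longest Ago1 transcript and 0.619% of that of Ago3 in GENCODE. The window length was set here, without regard to the read length. Reads placed at several positions were left out by the counting defaults, so reads that fit both genes equally well count for neither. The stretch is shown to let its copies be compared, read from the GENCODE vM21 transcripts (GRCm38) at chr4:126448778-126448947 in Ago1, chr4:126363657-126363826 in Ago3, chr15:73121075-73121244 in Ago2 and chr4:126509962-126510131 in Ago4, all on the minus strand. Capitals mark bases that differ from Ago1.
Ago1 and Ago3: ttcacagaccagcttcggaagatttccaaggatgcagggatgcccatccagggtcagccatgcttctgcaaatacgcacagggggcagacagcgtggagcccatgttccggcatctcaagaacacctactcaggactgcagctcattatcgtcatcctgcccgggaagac
Ago2: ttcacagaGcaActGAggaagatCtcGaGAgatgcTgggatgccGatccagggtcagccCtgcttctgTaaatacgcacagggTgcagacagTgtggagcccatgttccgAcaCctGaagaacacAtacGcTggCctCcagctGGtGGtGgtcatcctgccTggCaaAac
Ago4: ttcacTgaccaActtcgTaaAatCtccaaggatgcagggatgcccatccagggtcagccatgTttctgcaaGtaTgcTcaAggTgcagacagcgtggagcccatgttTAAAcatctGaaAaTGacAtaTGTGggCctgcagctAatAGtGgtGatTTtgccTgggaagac
Ago2 differed from Ago1 at 30 of the 170 bases and Ago4 at 33. No run longer than 53 bases was shared between the coding sequences of any other pair of Argonautes, so that reads of the other pairs are told apart by their letters over nearly the whole coding sequence.

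Ago3 had 38.1 and 36.8 CPM in shScramble replicates 1 and 2 and 22.7 and 30.0 CPM in shYthdf2 replicates 1 and 2. The groups did not overlap, and the 2 control libraries were closer to each other than the 2 knockdown libraries. The fold change was -0.51 ± 0.16 on the log2 scale (SE), which is 0.704 times the control level with a 95% interval of 0.553 to 0.898, but the edgeR adjusted p was 0.106 (unadjusted p = 0.00936). This call depended on the analysis. DESeq2 gave Ago3 an adjusted p of 0.0460 and edgeR without a filter on low counts gave 0.0278. Without shYthdf2 replicate 2 the log2 fold change was -0.72, and without shYthdf2 replicate 1 it was -0.32. Among the 12 alternatives run were fits that left out each of the 4 libraries in turn. Over the others the adjusted p of Ago3 ranged from 0.00167 to 0.123.

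Ago1 gave 142 and 167 CPM with shScramble and 108 and 140 CPM with shYthdf2. The higher shYthdf2 library lay just under the lower shScramble library. For Ago1 the log2 fold change was -0.32 ± 0.14 (SE, edgeR adjusted p = 0.228, unadjusted p = 0.0452). Without shYthdf2 replicate 2 it was -0.53, and without shYthdf2 replicate 1 it was -0.15. The adjusted p ranged from 0.0109 to 0.2545 over the alternatives that kept all 4 libraries.

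Ago4 had few reads, 45 and 63 in shScramble and 29 and 44 in shYthdf2, which made 1.25, 2.00, 0.848 and 1.23 CPM. The groups did not overlap, though the higher shYthdf2 library and the lower shScramble library differed by a single read. The log2 fold change of -0.64 ± 0.44 (SE) had a 95% interval from -1.62 to 0.34 and an edgeR adjusted p of 0.455. At this depth the interval held no change, and it also held a level as low as 0.326 times the control. The estimate moved with single libraries without a call, from -0.94 without shScramble replicate 1 and -0.93 without shYthdf2 replicate 2 to -0.40 without shYthdf2 replicate 1 and -0.26 without shScramble replicate 2.

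Ago2 reached 211 and 221 CPM with shScramble, and 163 and 283 CPM with shYthdf2. One knockdown library was below both controls and the other above both. Averaged over both, the fold change was 0.05 ± 0.20 on the log2 scale (SE, edgeR adjusted p = 0.928), with a 95% interval from -0.41 to 0.50. The difference within replicate number 1 was -0.37 and within replicate number 2 it was 0.36 on the log2 scale. Without shYthdf2 replicate 1 the log2 fold change of Ago2 was 0.39, and without shYthdf2 replicate 2 it was -0.40, so a single library set the direction. Over the alternatives that kept all 4 libraries the adjusted p lay between 0.873 and 0.993.

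The 2 shYthdf2 libraries differed by 1.74 times for Ago2. Of the 9537 tested genes with a mean of at least 10 CPM, 0.881% had a gap as large between these libraries. Replicate 2 was the higher of the pair for all 4 Argonautes, by 1.30 times for Ago1, 1.32 times for Ago3 and 1.45 times for Ago4. Between the controls, replicate 2 was 1.17 times replicate 1 for Ago1, 1.05 times for Ago2, 0.964 times for Ago3 and 1.60 times for Ago4, so for Ago4 the control gap was the larger. A shYthdf2 gap as large as that of Ago1 was found in 9.82% of the 9537 genes. For Ago3 this share was 8.32%. For the genes of the 10 that are not Argonautes, it ran from 18.9% (Tarbp2, with replicate 1 higher) to 99.8% (Drosha). Replicate 2 was the higher for 8 of the 10 genes, with Drosha among them at a log2 difference of only 0.0004. Over the 9537 genes the median log2 difference of shYthdf2 replicate 2 from replicate 1 was -0.0285. The larger shYthdf2 gaps among the 10 genes were thus those of the Argonautes. Several other quantities moved with this pair of libraries. Over the same 9537 genes, the median log2 difference of shYthdf2 replicate 2 from replicate 1 was -0.17 for genes with under 2000 bases of exon, -0.08 from 2000 to 4000 bases, 0.04 from 4000 to 8000 bases and 0.18 for at least 8000 bases. Ago1, with 7442 bases, belongs to the group with a median of 0.04, and the other 3 Argonautes, with up to 19982 bases, to the longest. The summed level of the 7 tested markers of 2C-like cells, the rare ESC state that resembles the 2-cell embryo, was 30.0 and 44.9 CPM in shScramble, 59.3 CPM in shYthdf2 replicate 1 and 164 CPM in replicate 2. The part of either in the Argonaute values was not tested. In bulk RNA, fewer cells that express a gene and less of its RNA per cell cannot be told apart.

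**Figure D2:**
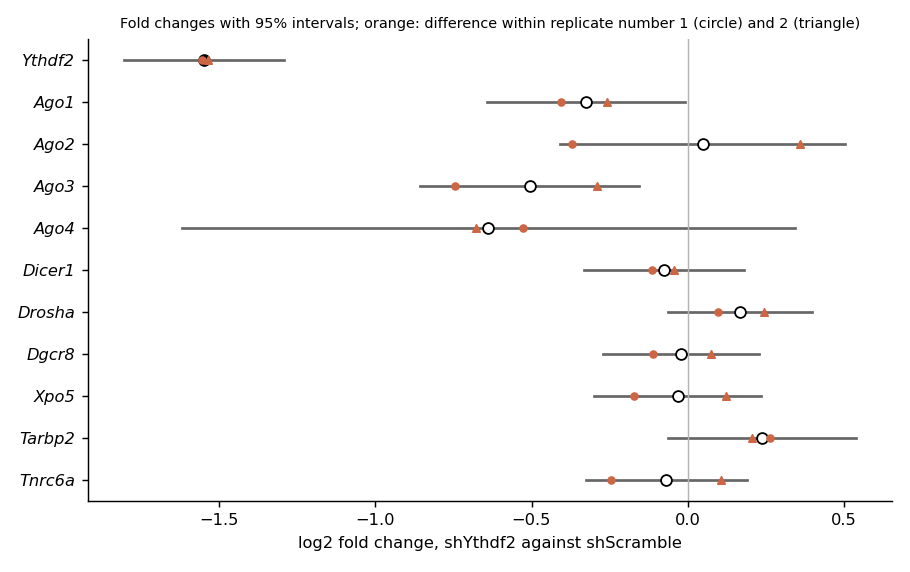
Log2 fold change of shYthdf2 against shScramble (x axis) for Ythdf2 and the 10 genes, with large circles for the edgeR estimate (filled where the adjusted p was under 0.05), lines for 95% intervals and small orange circles and triangles for the difference within replicate numbers 1 and 2. Ythdf2 stands alone at -1.55, and the Ago2 differences fall on both sides of 0, at -0.37 and 0.36.

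Per unit of exon length, as TPM (reads over the deposited gene length, scaled to the same sum in each library), the order of the 10 genes by mean over the 4 libraries was Drosha (209), Xpo5 (88.6), Tarbp2 (78.6), Ago2 (70.8), Ago1 (48.4), Dicer1 (37.6), Tnrc6a (29.8), Dgcr8 (10.1), Ago3 (4.13) and Ago4 (0.365). From Xpo5 down to Tnrc6a, the range of each gene over the libraries overlapped that of the next. Within libraries, however, Ago2 lay above Ago1, Ago1 above Dicer1 and Dicer1 above Tnrc6a in 4 of 4, whereas Xpo5 lay above Tarbp2 in 3 of 4 and Tarbp2 above Ago2 in 2 of 4. Drosha lay above all others in every library, with 192 to 229 TPM, and Ago4 below all, with 0.217 to 0.559 TPM. Drosha exceeded 95.5% of the tested genes by this mean and Ago4 8.19% of them. Lengths of the longest coding GENCODE transcripts kept 5 of the 10 places, the top place and the bottom 3 among them, and moved Ago2 from place 4 to place 7, its transcript having 13800 bases there against 8031 in the deposited table.

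The make-up of the Argonaute pool was described by each gene's share of the summed Argonaute TPM. Ago2 made up 55.4% and 52.9% in shScramble and 56.4% and 63.4% in shYthdf2. Ago1 made up 40.3% and 43.2%, then 40.1% and 33.7%. Ago3 made up 4.02% and 3.53% in shScramble and 3.16% and 2.70% in shYthdf2, and Ago4 was at most 0.406% in any library. Ago2 and Ago1 were thus the main Argonaute transcripts of these cells in each library, and Ago2 led in all 4 on the deposited lengths. With GENCODE transcript lengths Ago1 made up 52.4% and 55.3% in shScramble and 52.6% and 46.1% in shYthdf2, and Ago2 made up 40.6% and 38.3%, then 41.8% and 48.9%. On those lengths Ago1 led in 3 libraries, and Ago2 led in shYthdf2 replicate 2. The summed level of all 4 was 122 and 138 TPM in shScramble and 87.2 and 148 TPM in shYthdf2, so the knockdown libraries lay on either side of the controls.

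**Figure D3:**
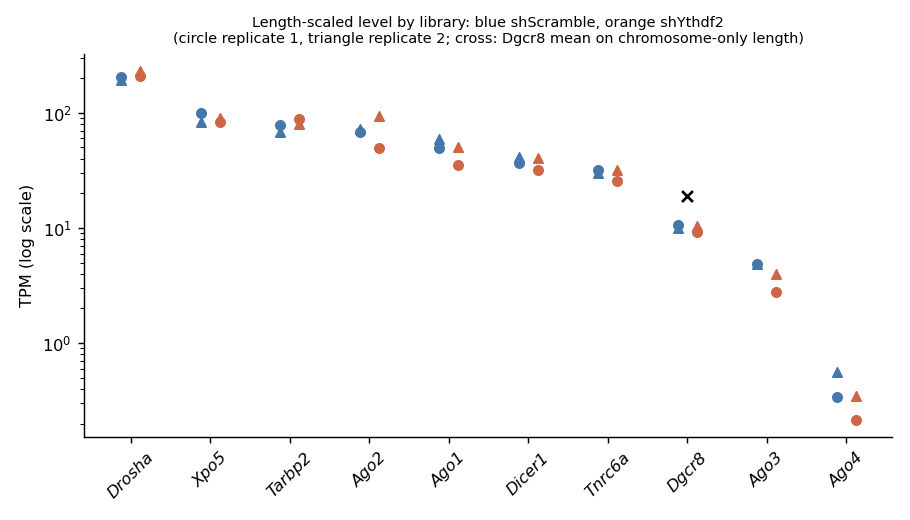
TPM on a log scale (y axis) of the 10 genes in order of their mean, with shScramble in blue and shYthdf2 in orange, circles for replicate 1 and triangles for replicate 2, and a cross for the Dgcr8 mean on its chromosome length alone. The levels run from 0.217 TPM for Ago4 to 229 TPM for Drosha, and the cross at 19.1 TPM leaves Dgcr8 in its place in the order.

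Drosha, the nuclease of the Microprocessor, lies at chr15:12824804-12935291 on the plus strand. It was measured at 379 and 343 CPM in shScramble and at 405 CPM in both shYthdf2 libraries. The knockdown values lay above the higher control by less than the controls differed from each other. Its log2 fold change was 0.17 ± 0.10 (SE, edgeR adjusted p = 0.397) with a 95% interval from -0.06 to 0.40, so a rise of over 1.32 times lies outside it.

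Dgcr8, which binds the hairpin and positions Drosha, lies at chr16:18253948-18289251 on the minus strand. It had 71.5 and 64.5 CPM in shScramble and 66.2 and 67.8 CPM in shYthdf2. The knockdown values lay between the control values. On the log2 scale the fold change was -0.02 ± 0.11 (SE, edgeR adjusted p = 0.943), with an interval from -0.27 to 0.23. The ratio of Drosha to Dgcr8 in CPM was 5.30 and 5.31 in shScramble and 6.12 and 5.97 in shYthdf2. This ratio was higher in both knockdown libraries. With 2 libraries a group, 0.333 is the lowest two-sided p that an exact permutation test can reach. Drosha alone also lay above both controls in both knockdown libraries, as did 26.2% of all tested genes. How many other gene pairs have ratios that separate the groups was not counted, so the ratio is not a result about this pair. The deposited length of Dgcr8, 17240 bases, includes exons on 2 extra contigs, and its exons on chromosome 16 have 8788 bases. On that length its mean level was 19.1 TPM in place of 10.1.

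The Dgcr8 transcript itself holds a pair of microRNA hairpins, and it is known as a substrate of the Microprocessor. The hairpin of Mir1306 lies in a coding exon, at chr16:18284239-18284317, and that of miR-3618, listed as Gm24572, lies upstream in an exon outside the coding sequence, at chr16:18284550-18284637. They are shown because the same bases belong to the Dgcr8 mRNA and to hairpins that the Microprocessor cuts, from RefSeq on GRCm38.p6, with the mature arms of the hairpin and the seeds of the mature sequences (bases 2 to 8) in capitals.
Mir1306 hairpin: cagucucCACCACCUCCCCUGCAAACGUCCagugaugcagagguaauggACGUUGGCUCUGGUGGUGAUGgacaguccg
miR-1306-5p: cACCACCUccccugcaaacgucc
miR-1306-3p: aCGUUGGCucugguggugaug
miR-3618-5p: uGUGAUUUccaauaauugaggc
miR-3618-3p: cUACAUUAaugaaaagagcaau
The 4 seeds differ from one another. Both hairpin rows had 0 reads in every library. Reads over these hairpins also lie over Dgcr8, and reads over several genes were left out. The 0 therefore gives no upper bound for the hairpins and says nothing about cutting of the transcript. In all, 11.3% of the Dgcr8 exon bases also belong to other rows, with Trmt2a on the opposite strand among them, and no strand was used in the counting.

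Xpo5, the export receptor for hairpin precursors, lies at chr17:46202811-46243598 on the plus strand. It was measured at 194 and 158 CPM in shScramble and at 172 CPM in both shYthdf2 libraries. The knockdown libraries lay between the controls. Xpo5 had a log2 change of -0.03 ± 0.12 (SE, adjusted p = 0.914 in edgeR), with an interval from -0.30 to 0.23.

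Dicer1, at chr12:104687740-104751968 on the minus strand, had 157 and 173 CPM in shScramble and 145 and 168 CPM in shYthdf2. The groups overlapped, and the log2 fold change was -0.08 ± 0.11 (SE, edgeR adjusted p = 0.760), with an interval from -0.33 to 0.18.

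Tarbp2, the double-stranded RNA binding partner of Dicer1, lies at chr15:102516077-102523676 on the plus strand and was measured at 82.4 and 69.9 CPM in shScramble and 98.8 and 80.6 CPM in shYthdf2. The lower knockdown library lay under the higher control, while within each replicate number the knockdown was higher. Tarbp2 had a log2 change of 0.24 ± 0.13 (SE, adjusted p = 0.357 in edgeR), with an interval from -0.06 to 0.54. Without shYthdf2 replicate 2 it was 0.38, and without shYthdf2 replicate 1 it was 0.08. Over the alternatives that kept all 4 libraries the adjusted p ran from 0.103 to 0.377. Of the 75-base windows of the longest Tarbp2 transcript, 43.0% also occur in the predicted genes Gm18561 and Gm18584, which had at most 57 reads in a library beside 2202 to 3379 for Tarbp2. Reads of such windows may have been dropped as fitting several places, so the measured level of Tarbp2 may be too low. Longer reads would fit several places less often, and the read length was not taken into account.

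Tnrc6a, the scaffold between Argonaute and the deadenylases, lies at chr7:123031101-123195296 on the plus strand. It had 162 and 146 CPM in shScramble and 137 and 157 CPM in shYthdf2. The groups overlapped, and the difference was -0.25 within replicate number 1 and 0.11 within replicate number 2 on the log2 scale. Both numbers together gave a log2 change of -0.07 ± 0.11 (SE, adjusted p = 0.790 in edgeR), with an interval from -0.33 to 0.19. For Dgcr8, Xpo5, Dicer1 and Tnrc6a alike, the 95% intervals ran from -0.33 at the lowest bound to 0.23 at the highest, and leaving out a library turned the sign of each of the 4 estimates at least once without a call.

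**Figure D4:**
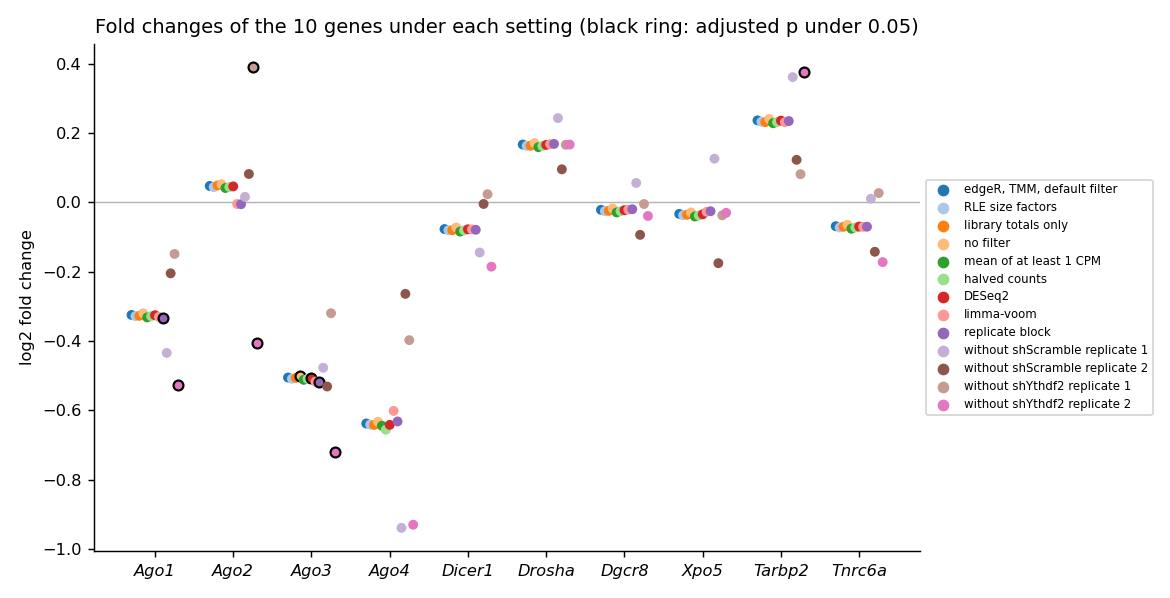
Log2 fold change (y axis) of each of the 10 genes under edgeR with TMM and the default filter, under 8 other settings and with each of the 4 libraries left out (colours), with a black ring where the adjusted p was under 0.05. Rings appear at Ago1, Ago2, Ago3 and Tarbp2. Those at Ago2, on both sides of 0, and at Tarbp2 come only from fits with a library left out.

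The sequence GGACT, one form of the context in which m6A is placed, was counted on the sense strand of the longest coding GENCODE transcript of each gene. The density per kilobase was highest in Xpo5 (1.57), Dicer1 (1.32) and Ago1 (1.25) and lowest in Ago4 (0.459), Dgcr8 (0.463) and Tnrc6a (0.489), beside a median of 1.05 over 14063 tested genes. At least 1 copy was present in 92.5% of those genes, so its presence does not set the 10 apart. Ago2 and Ago3 held 13 and 9 of their 15 and 14 copies after the coding sequence, in transcripts with long untranslated ends. A match gives letters only and no methylation.

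Lists of other genes around the pathway were read in the same fit. In the Microprocessor cofactors (10 of 10 tested, such as helicases and RNA binding proteins that work with Drosha), 0 genes were called, 0 had an unadjusted p under 0.05, and the median log2 fold change was 0.05. In the Ran cycle, which drives export through Xpo5, 0 of 6 were called, with a median of -0.03. The only 1 with an unadjusted p under 0.05 was Xpo1, the export receptor for proteins and some capped precursors, with 623 and 598 CPM in shScramble and 496 and 534 CPM in shYthdf2 (log2 fold change -0.24, edgeR adjusted p = 0.206). Of the 8 chaperones that load Argonautes 0 were called, and so were 0 of 12 tested microRNA host genes, with medians of -0.01 and -0.10 and 0 genes at an unadjusted p under 0.05 in either list. Over all 7 lists DESeq2 called 3 genes higher and 5 lower, beside 808 and 615 of 30565 genes. The counts for limma-voom were 1 and 3, beside 368 and 253 of 18341.

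Among 20 Dicer and RISC partners 0 were called, with a median of -0.06, and 4 had an unadjusted p under 0.05. Of these 2 were higher, beside 11.0% of all tested genes, and 2 lower, beside 9.80%, shares near the background and no result about the list. The 3 with the lowest p were near the threshold. P4ha1, a prolyl hydroxylase reported to act on Ago2, had 27.1 and 44.2 CPM in shScramble and 20.5 and 17.6 CPM in shYthdf2 (log2 fold change -0.90, edgeR adjusted p = 0.0502). The LIM proteins Ajuba and Wtip, found with Argonautes in P-bodies, had log2 fold changes of 0.60 (adjusted p = 0.0600) and 0.44 (adjusted p = 0.0616), with both knockdown libraries above both controls. These 3 genes were called by DESeq2, at adjusted p-values of 0.00148, 0.00293 and 0.0168, and in 8, 6 and 4 of the 12 alternatives, with adjusted p-values up to 0.223, 0.247 and 0.317. The size for P4ha1 ran from -1.21 without shScramble replicate 1 to -0.51 without shScramble replicate 2 (adjusted p = 0.223 in edgeR), and that for Ajuba from 0.39 to 0.85 with 1 library left out.

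In the list of precursor turnover and tailing, 0 of 12 were called in edgeR, 3 were lower at an unadjusted p under 0.05, beside 9.80% of all tested genes, and the median was -0.14. Lin28a, which binds let-7 precursors and blocks their processing in ESCs, had 236 and 191 CPM in shScramble and 155 and 150 CPM in shYthdf2. Both knockdown libraries were below both controls, at a log2 change of -0.49 ± 0.12 (SE, adjusted p = 0.0562 in edgeR). Tut4, which adds uridines to those precursors, and Zc3h12a, a nuclease that cuts precursor loops, had log2 fold changes of -0.28 (adjusted p = 0.161) and -0.39 (adjusted p = 0.181). With a minimum mean of 1 CPM, with halved counts, with library totals alone and with DESeq2, Lin28a passed, at adjusted p-values of 0.0491, 0.0473, 0.0474 and 0.00559. It passed in 9 of the 12 alternatives, with an adjusted p of at most 0.293. The summed ESC markers given above were also lower in both shYthdf2 libraries, and their part in the Lin28a values was not tested.

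The piRNA pathway, the germline small RNA route with Argonautes of the PIWI family, was the only one of the 7 lists with genes called in this edgeR fit. Of 19 tested genes 3 were lower, beside 1.49% of all tested genes, and 1 was higher, beside 2.43%. The lists were chosen with earlier results of these data known, so these counts are not a test of the pathway. At an unadjusted p under 0.05, 6 were lower and 1 was higher, beside 9.80% and 11.0%, and the median log2 fold change was -0.33. At the same unadjusted threshold, 4 of the 8 ESC markers were lower and 6 of the 7 tested 2C-like markers were higher. The part of these markers' changes in the values of the piRNA genes was not tested. Piwil2, a PIWI protein, fell from 44.4 and 38.1 CPM to 23.3 and 17.6 CPM (log2 fold change -1.01 ± 0.17, SE, adjusted p = 0.0150). Mov10l1, the helicase that feeds piRNA precursors, fell from 30.0 and 29.8 CPM to 16.6 and 16.2 CPM (adjusted p = 0.0152), and Mael, which acts in piRNA-guided silencing, from 48.0 and 55.0 CPM to 31.6 and 28.8 CPM (adjusted p = 0.0161). The groups did not overlap for any of these 3 genes. Tdrd12, a tudor protein, rose from 10.3 and 8.63 CPM to 24.4 and 25.2 CPM (log2 fold change 1.39 ± 0.17, SE, adjusted p = 0.00468). Each of these 4 genes was called in all 12 alternatives. Asz1 (-1.06), Ddx4 (-0.47) and Piwil4 (-0.83), also germline piRNA genes, had log2 fold changes below 0 with adjusted p-values of 0.116, 0.141 and 0.163. Asz1 was called in 5 of the 12 alternatives, at adjusted p-values from 3e-10 to 0.367, and its size depended on single libraries, being -1.76 when shYthdf2 replicate 1 was left out and -0.59 when shYthdf2 replicate 2 was. Genes of this list were thus called in both directions, and the germline route is not the one that handles shRNAs.

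**Figure D5:**
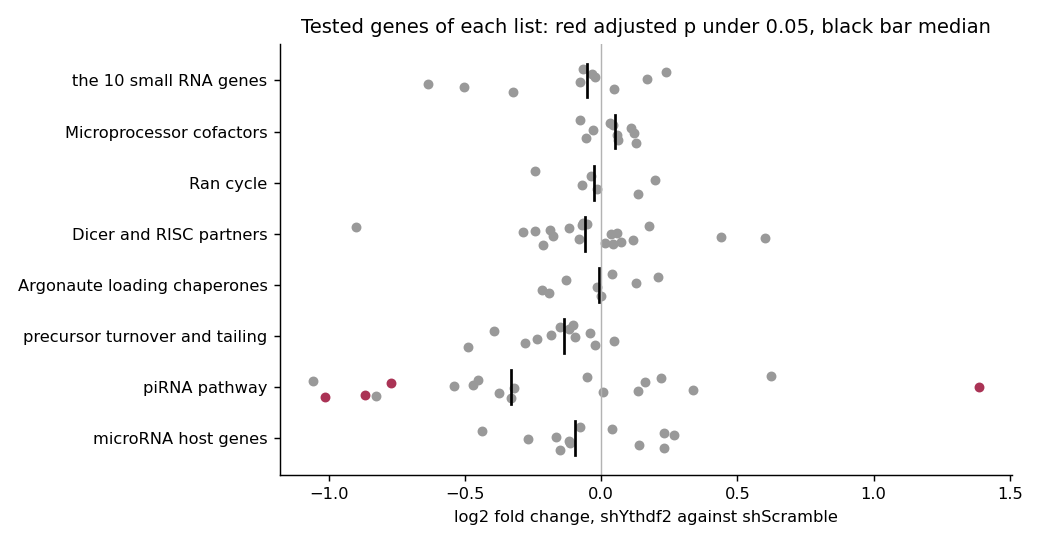
Log2 fold change (x axis) of every tested gene of the 10 small RNA genes and of 7 lists around them, in red where the edgeR adjusted p was under 0.05, with a black bar at the median of each list. Red points appear in the piRNA list alone, 3 to the left and 1 to the right of 0.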

How the data were processed

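The authors deposited raw counts of reads, 1 table for all 4 libraries, made per the file headers with featureCounts 2.0.3 over RefSeq exons of mm10, counting each read of a pair, without strand. The submitters' processing notes name fastp 0.19.4, HISAT2 2.2.1 and DESeq2 1.40.2. The number of further per-sample columns was 0. Libraries were grouped by title. Counts were tested with edgeR 4.0.16 (quasi-likelihood F test, two-sided, TMM, filterByExpr with minimum count 10 and minimum total 15, Benjamini-Hochberg over 18341 genes, R 4.3.3), after tests on simulated data. SE is the fold change over the root of F. Alternatives used DESeq2 1.42.0 and limma 3.58.1. TPM used deposited exon lengths. Sequence work used Biopython 1.88 on GENCODE vM21 and RefSeq. The 10 genes and the lists were chosen with earlier results of these data known. Named list genes had an adjusted p under 0.05, or were among up to 3 more per list with the lowest unadjusted p under 0.05.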

Additional observations from a re-analysis of the deposited data

How the results depend on the processing

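RLE factors, library totals, a mean of at least 1 CPM, halved counts and limma-voom gave 0 calls among the 10 genes, as did edgeR as reported. 1 gene, Ago3, was called lower without a filter, beside 843 of 30565 genes, and 1, again Ago3, with DESeq2, beside 615 of 30565. With the replicate number as a block 2 were called lower, Ago1 and Ago3 (adjusted p = 0.0109 and 0.00167). The deviations of same-numbered libraries correlated at 0.225 across genes, but there are only 2 numbers, and the labels do not say that a number marks a shared culture or day. The block moved the calls over all genes from 445 higher and 273 lower to 1851 and 1674. With a library left out, the log2 fold change ran from -0.72 to -0.32 for Ago3 and from -0.53 to -0.15 for Ago1. In such a fit the lone library left in a group is assumed to vary like the other group, and calls depend on that assumption.

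The median log2 fold change of the 10 genes ranged from -0.18 to 0.0133 on leaving out a library, above 0 without shScramble replicate 1 and without shYthdf2 replicate 1, and kept its sign under the other settings. The sign turned for Ago2 under limma-voom (-0.0045) and the replicate block (-0.0053), and on leaving out a library for Ago2 (-0.40 to 0.39), Dicer1 (-0.19 to 0.0236), Dgcr8 (-0.0936 to 0.0561), Xpo5 (-0.18 to 0.13) and Tnrc6a (-0.17 to 0.027). Ythdf2 kept its direction and its call in each setting, at -1.59 to -1.50 with a library left out.

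Over the 7 lists, 1 gene was called higher and 3 lower. Among the settings that kept all 4 libraries, the higher calls became 3 without a filter, with DESeq2 and with the block. Leaving out a library raised them in some fits too, most of all without shYthdf2 replicate 2. Those calls depend on the assumption about the lone library. The lower calls became 6 without a filter, 5 with a mean of at least 1 CPM, 5 with halved counts, 5 with DESeq2, 14 with the block, and 4 to 8 with a library left out. Among the length scalings, FPKM on the TMM library size and chromosome exon length kept all 10 places, and GENCODE transcript length kept 5. That length put the shScramble shares at 53.9% (Ago1), 39.5% (Ago2), 6.07% (Ago3) and 0.620% (Ago4). The Ago2 transcript there is longer than its deposited length, and those of Ago1, Ago3 and Ago4 are shorter. The cause of the other changes was not tested. With 2 libraries a group, the 95% intervals of the 10 genes spanned 0.23 to 0.98 on either side of the log2 estimate.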
